A study of Mus musculus with 30 samples.

Results

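The Hippo pathway was followed here through 10 genes, which make up its effectors, its brake and its standard readouts in mouse cells. The members were the rows of the count tables whose Ensembl identifiers carry the symbols Yap1, Wwtr1, Tead1, Lats1, Lats2, Amotl1, Amotl2, Ccn1, Ccn2 and Ankrd1. These are 10 of 56941 genes counted, and all 10 passed the filter on low counts in each fit. The RNA came from mHypoA-2/12, a line made from the adult mouse hypothalamus and immortalised, so the results are those of 1 line. Libraries were made from the 3′ ends of transcripts after 6 h or 24 h with vehicle (0.1% DMSO) or with cannabidiol (CBD), given at 3 µM, 1.5 µM, 0.75 µM or 0.325 µM, with 3 libraries in each of 10 groups and 30 in all. The libraries carry the labels A1 to A30. At 6 h, vehicle is A1 to A3, and the doses from the highest to the lowest are A4 to A6, A7 to A9, A10 to A12 and A13 to A15. At 24 h, vehicle is A28 to A30, and the doses in the same order are A16 to A18, A19 to A21, A22 to A24 and A25 to A27. The authors' methods name serum in the growth medium and none in the medium used for CBD or vehicle. Cells of every group were detached with trypsin before RNA isolation. Nothing in the labels says that the 3 libraries of a group came from separate cultures, so p-values measure the spread between these libraries, which may be technical.

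In the Hippo pathway a kinase chain ends in LATS1 and LATS2, which phosphorylate the coactivators YAP (Yap1) and TAZ (Wwtr1) and keep them out of the nucleus. YAP and TAZ that reach the nucleus bind DNA through TEAD factors such as Tead1 and switch on genes that include Ccn1, Ccn2, Ankrd1 and Amotl2. Angiomotin-like proteins (Amotl1, Amotl2) hold YAP at cell junctions and in the cytoplasm, and Lats2 is itself a YAP target, so the pathway contains negative feedback. Most of its control acts on protein phosphorylation and location, which read counts do not measure.

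To show what is written at the start of the target genes, the 250 bases before the annotated transcription start were read from the RefSeq promoter table (build GRCm38.p6), which held 8 of the 10 members. Ccn2 and Tead1 were not among them. The hexamer GGAATG, the core of the TEAD motif, was searched together with its reverse complement. It was present in 5 of these 8 members and in 14.4% of the 27025 genes of the table. Yap1, Wwtr1, Amotl2 and Ccn1 each had 1 such hexamer in a window, Ankrd1 had 2, and Amotl1, Lats1 and Lats2 had none in the window searched. In Amotl2 it lay 65 to 60 bases before the start, in Ccn1 103 to 98 bases and in Yap1 141 to 136 bases. In Ankrd1 the hexamers lay 210 to 205 and 123 to 118 bases before the start. A CArG box, the site of serum response factor, was found in 0 of the 8 members, in 1.62% of all genes, and in 6 of 11 genes of a list of serum response factor targets. Of the other YAP/TAZ targets described further on, 3 of 11 in the table had the TEAD hexamer. The windows of 3 target genes and of Yap1, whose level moved with that of Amotl2, are printed 5′ to 3′ along the strand of the gene with the hexamer in capitals. Such a match is a run of letters and not a measured binding site.
Amotl2 (chr9:102717554-102717803, strand +): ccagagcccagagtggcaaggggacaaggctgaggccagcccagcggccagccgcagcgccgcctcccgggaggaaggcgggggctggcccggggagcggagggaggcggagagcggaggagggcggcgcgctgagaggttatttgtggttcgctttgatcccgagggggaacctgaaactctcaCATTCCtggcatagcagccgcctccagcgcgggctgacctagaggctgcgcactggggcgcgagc
Ccn1 (chr3:145649986-145650235, strand -): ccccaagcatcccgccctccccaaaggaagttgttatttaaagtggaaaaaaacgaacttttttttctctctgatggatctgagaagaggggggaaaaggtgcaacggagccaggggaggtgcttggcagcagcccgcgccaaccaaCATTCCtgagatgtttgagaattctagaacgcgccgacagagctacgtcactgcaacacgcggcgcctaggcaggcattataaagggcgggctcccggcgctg
Ankrd1 (chr19:36119845-36120094, strand -): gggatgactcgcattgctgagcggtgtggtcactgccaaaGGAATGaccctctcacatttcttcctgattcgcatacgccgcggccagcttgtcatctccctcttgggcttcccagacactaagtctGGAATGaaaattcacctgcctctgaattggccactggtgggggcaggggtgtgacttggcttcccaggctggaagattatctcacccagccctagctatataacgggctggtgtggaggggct
Yap1 (chr9:8004597-8004846, strand -): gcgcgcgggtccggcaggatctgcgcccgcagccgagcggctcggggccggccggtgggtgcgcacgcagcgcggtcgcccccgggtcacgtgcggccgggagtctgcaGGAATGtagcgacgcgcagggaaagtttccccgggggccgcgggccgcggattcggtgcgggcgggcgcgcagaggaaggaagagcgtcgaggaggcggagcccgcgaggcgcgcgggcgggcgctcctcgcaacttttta

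Read depth and cell markers bear on every value given here. Each library held between 1839621 and 4420675 reads on genes. Levels are given as CPM, the count of a gene scaled to the size of its library, after TMM scaling over all 30 libraries. The share of uniquely mapped reads that fell outside genes was 17.7% to 22.2%. Of 14 neuronal markers, Dcx was at 0, and Rbfox3, Snap25, Elavl3, Elavl4, Npy and Agrp had means of 0.0146 to 0.589 CPM. The other 7 had a mean above 1 CPM. All 10 mesenchymal markers did, with a summed level of 6390 to 8380 CPM against 119 to 189 CPM for the neuronal list. Of 11 glial markers 3 did, with Aqp4, Olig1, Olig2 and Sox10 at 0, and of 6 endothelial markers none did, with Cldn5 at 0. Their parts in the results were not tested. The neuronal sum was 155 to 189 CPM in the vehicle libraries and 130 to 181 CPM in the CBD-treated libraries of 6 h, and at 24 h it was 139 to 146 CPM in vehicle, 119 to 144 CPM at the lower doses and 138 to 184 CPM at 3 µM. In bulk RNA, fewer cells of a type and less RNA per cell cannot be told apart. Within groups, 1 library often stood to one side for most members. Vehicle library A3 of 6 h was the highest of its group for 8 of the 10 members. It held 3574833 reads on genes, against 1839621 in A1 and 1919498 in A2. It also had the lowest share of reads outside genes of the 3 (17.9%, against 21.4% and 20.8%). At 24 h and 3 µM, library A16 was the lowest of its group for 8 members and A17 the highest for 7. Libraries A14 (0.325 µM, 6 h) and A21 (1.5 µM, 24 h) were also each the lowest of their group for 8 members. Such counts were not taken over all genes, so they are not a trait of the members. In GENCODE M21, exons of Yap1, Ccn2 and Lats2 share bases with another gene (Gm20416, Gm15270 and Gm49361), on which 30, 58 and 0 reads were counted over all libraries. The strand setting of the counting is not given in the sources used here.

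**Figure D1:**
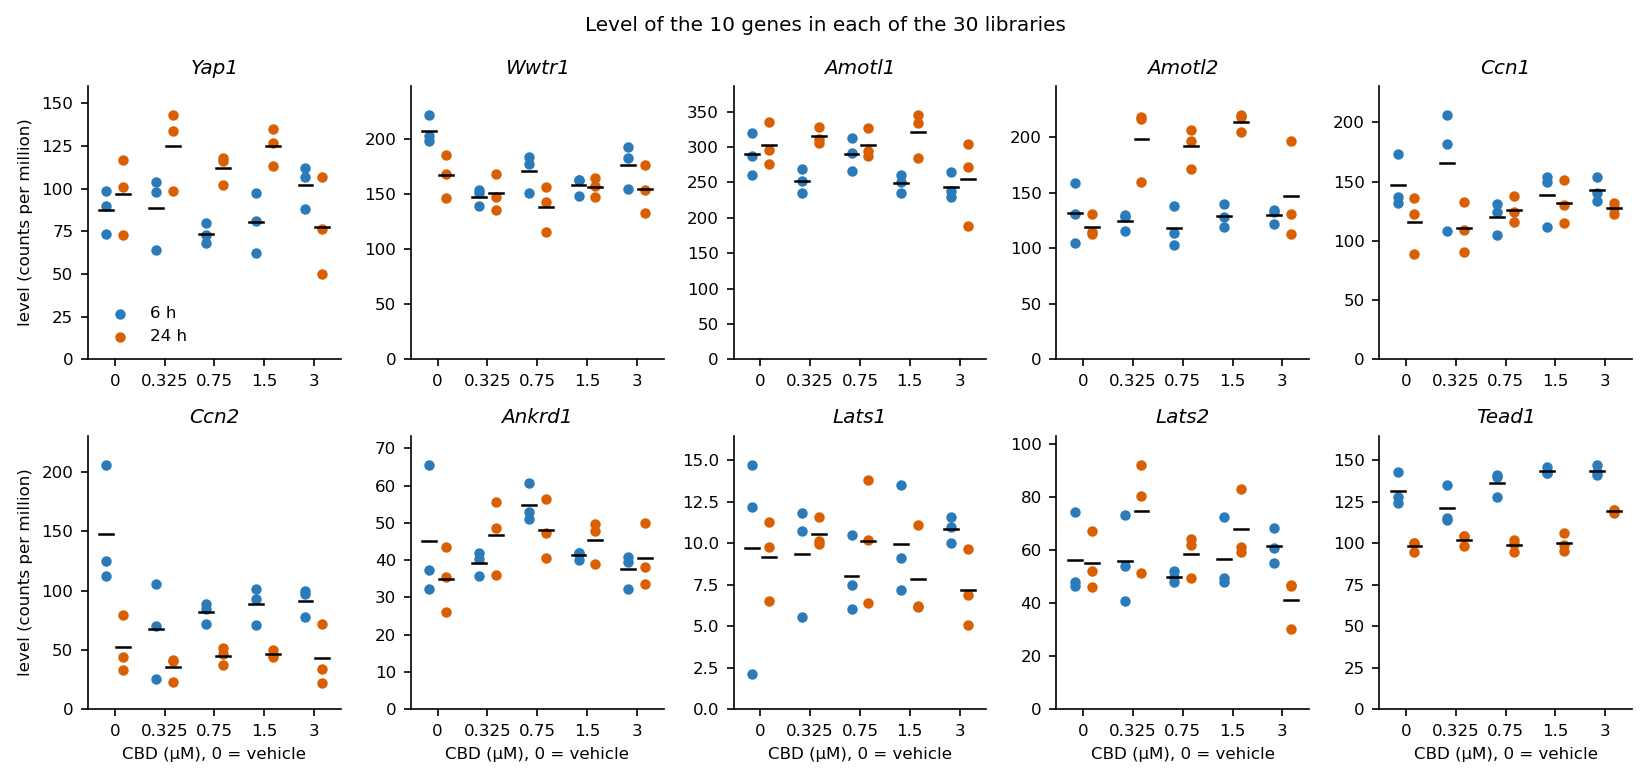
Level of each gene in CPM (vertical axis, starting at 0) in every library by CBD dose (horizontal axis), with 6 h in blue, 24 h in orange and a bar at each group mean of 3 libraries. Amotl2 at 24 h sat at 160 to 220 CPM at the 3 lower doses and at 113 to 131 CPM in vehicle, and Ccn2 was lower at 24 h than at 6 h.

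Amotl2, which encodes a junctional scaffold that binds YAP, was the member that changed with CBD at 24 h. In the vehicle libraries of 24 h it stood at 131, 115 and 113 CPM. The 0.325 µM libraries stood at 218, 217 and 160 CPM, those of 0.75 µM at 172, 197 and 207 CPM, and those of 1.5 µM at 220, 218 and 205 CPM. All 9 libraries of the 3 lower doses lay above all 3 vehicle libraries, a separation shown by 2.47% of the 12790 genes tested over both times. At 3 µM it stood at 113, 197 and 131 CPM, so 2 of these 3 libraries were within the range of the vehicle. The mean was 120 ± 9.83 CPM in vehicle. With 0.325, 0.75 and 1.5 µM it was 198 ± 33.3, 192 ± 18.1 and 214 ± 7.90 CPM, and with 3 µM 147 ± 44.3 CPM (SD, n = 3 each).

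Averaged over the 4 doses, Amotl2 was 1.54-fold higher than in vehicle at 24 h (log2 fold change 0.62, SE 0.13, edgeR FDR = 0.0443). It was the only member past the FDR threshold of 0.1 in this contrast, where 0.107% of all 12118 genes passed. By dose, from the lowest to the highest, the log2 change was 0.71 (SE 0.15), 0.66 (SE 0.16), 0.83 (SE 0.16) and 0.29 (SE 0.16). Only 1.5 µM passed (edgeR FDR = 0.0349, where 0.0413% of genes passed). The FDR was 0.1 after rounding at 0.325 µM, which just missed the threshold. It was 0.156 at 0.75 µM and 0.573 at 3 µM. At these 3 doses 0.066%, 0.0825% and 0.00825% of genes passed. At these 3 doses edgeR called 0 members, with 3, 3 and 1 at an unadjusted p below 0.05 (8.33%, 7.63% and 9.16% of all genes). DESeq2 called 1, 1 and 0 members, and its own share of all genes is not given here. The counts of genes passing at a single dose were small and moved with single libraries, that at 3 µM from 1 to 288 without A17. The 4 doses were compared with the same 3 vehicle libraries, so their values are not independent.

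The call for Amotl2 over the 4 doses was lost without any 1 of the vehicle libraries, and the share of reads outside genes moved with the groups. Without vehicle library A28, A29 or A30 the change over the 4 doses was 0.69, 0.60 or 0.59, with an edgeR FDR of 0.144, 0.271 or 0.376, and without A23 it was 0.62 with an FDR that rounded to 0.1. At 1.5 µM the call was lost without A19, A20, A21, A29 or A30 (0.79 to 0.86 on the log2 scale, highest FDR 0.376). At 0.325 µM Amotl2 passed without A16, A17, A18 or A27 (0.72, 0.72, 0.72 and 0.85), and at 0.75 µM without A16, A17 or A27 (0.67, 0.67 and 0.66). The share of reads outside genes was 21.4% ± 0.714 in vehicle and 21.4% ± 0.487 at 3 µM (SD, n = 3 each), and 19.5% ± 0.464 in the 9 libraries of the lower doses. With that percentage added to the model the change over the 4 doses was 0.64 and that at 1.5 µM 0.84, and neither passed (edgeR FDR = 1 and 0.921). At 24 h the share and treatment with the 3 lower doses cannot be told apart, while vehicle and 3 µM had the same mean share.

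At 6 h Amotl2 did not pass at any dose. It stood at 131, 105 and 159 CPM in vehicle and at 103 to 140 CPM in the 12 CBD-treated libraries (median 128 CPM), within the range of the vehicle but for A10 at 103 CPM. Its change over the 4 doses was −0.08 (SE 0.12, edgeR FDR = 0.889). The difference between 24 h and 6 h in the change from vehicle to CBD was 0.71 (SE 0.18, 95% interval 0.34 to 1.07, edgeR FDR = 0.126), so it missed the threshold, which 0.235% of 12790 genes passed. No member passed there in edgeR, 2 had an unadjusted p below 0.05 (6.52% of all genes), and DESeq2 called 1, Amotl2 (0.70, FDR = 0.0706). It also passed without A2, A16 or A27 (0.84, 0.75 and 0.74). In order of group mean Amotl2 ran from 119 CPM (0.75 µM, 6 h) and 120 CPM (vehicle, 24 h) through 125, 129, 130 and 131 CPM (0.325 µM, 1.5 µM, 3 µM and vehicle, all 6 h) to 147 CPM (3 µM, 24 h), 192, 198 and 214 CPM (0.75, 0.325 and 1.5 µM, 24 h). No neighbours in this order had ranges that were apart.

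**Figure D2:**
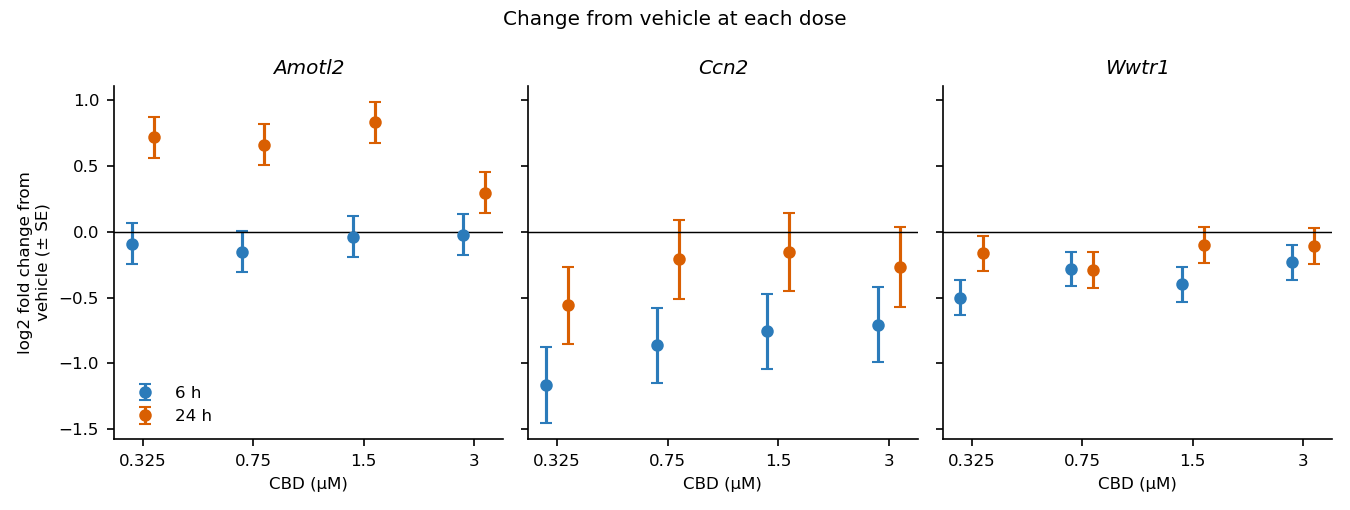
Log2 fold change from vehicle with its standard error (vertical axis) at each CBD dose (horizontal axis) for Amotl2, Ccn2 and Wwtr1 at 6 h (blue) and 24 h (orange), 3 libraries a group. Amotl2 at 24 h lay between 0.66 and 0.83 at the 3 lower doses and at 0.29 at 3 µM, and Ccn2 at 6 h lay between −1.16 and −0.71.

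Among the direct YAP target genes, Ccn2 (connective tissue growth factor, a secreted matrix protein) was lower with CBD at 6 h. It stood at 125, 112 and 206 CPM in vehicle, with A3 the highest. With 0.325 µM it stood at 70.0, 25.6 and 106 CPM, and with 0.75 µM at 84.9, 72.0 and 89.1 CPM. The 1.5 µM libraries stood at 93.2, 101 and 70.9 CPM and the 3 µM libraries at 77.8, 100 and 97.1 CPM. All 12 CBD-treated libraries were below all 3 vehicle libraries, as for 1.42% of the 12790 genes, and A14 at 25.6 CPM (65 reads) was the lowest. Over the 4 doses the fold was 0.547 (log2 fold change −0.87, SE 0.21, edgeR FDR = 0.0699), where 0.749% of 12012 genes passed and Ccn2 was the only member.

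By dose Ccn2 changed by −1.16 (SE 0.29), −0.86 (SE 0.28), −0.76 (SE 0.28) and −0.71 (SE 0.28) from 0.325 to 3 µM at 6 h on the log2 scale, with an edgeR FDR of 0.124, 0.384, 0.498 and 0.588. No member passed at a single dose of 6 h, where 0.2%, 0.0749%, 0.0999% and 0.05% of genes did. At an unadjusted p below 0.05 there were 2, 2, 2 and 1 members (8.8%, 7.79%, 7.91% and 7.26% of all genes), Ccn2 at each dose and Wwtr1 at the 3 lower ones. DESeq2 called 1, 0, 0 and 0 members, and the 1 called at 0.325 µM was Wwtr1 (−0.50, FDR = 0.0609) and not Ccn2. The pooled call depended on single libraries. Without A3 the change of Ccn2 was −0.54 (FDR = 0.279), and it also missed the threshold without A4, A5, A6, A9, A10 or A11 (−0.89 to −0.83, FDR 0.108 to 0.131). DESeq2 gave −0.86 with an FDR of 0.261. At 0.325 µM Ccn2 passed without A1 (−1.27) or A15 (−1.64).

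At 24 h Ccn2 did not differ between vehicle and CBD beyond the spread. It stood at 33.1, 44.1 and 79.1 CPM in vehicle, and at 21.8 to 72.2 CPM (median 42.8) in the 12 CBD-treated libraries, so the groups overlapped. The change over the 4 doses was −0.30 (SE 0.23, 95% interval −0.77 to 0.17, edgeR FDR = 0.896). The difference of the change between the times was 0.58 (SE 0.36, edgeR FDR = 0.821).

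Ccn1 and Ankrd1 gave no call against vehicle. Ccn1 (CYR61, a matricellular protein) stood at 173, 132 and 137 CPM in vehicle and 105 to 206 CPM with CBD (median 137) at 6 h, and at 88.5, 123 and 136 CPM in vehicle and 90.8 to 151 CPM with CBD (median 126) at 24 h. Its change over the 4 doses was −0.07 (SE 0.15, FDR = 0.929) at 6 h and 0.10 (SE 0.12, FDR = 0.943) at 24 h. Ankrd1, a cardiac ankyrin repeat protein and sensitive YAP reporter, stood at 32.3, 37.3 and 65.5 CPM in vehicle at 6 h and at 26.1, 35.5 and 43.4 CPM in vehicle at 24 h. With CBD it stood at 32.3 to 60.6 CPM (median 41.3) at 6 h and at 33.6 to 56.4 CPM (median 47.6) at 24 h. Its change over the 4 doses was −0.11 (SE 0.17, 95% interval −0.45 to 0.23) at 6 h and 0.37 (SE 0.16, 95% interval 0.04 to 0.71, edgeR FDR = 0.715) at 24 h. The 5 members known as YAP targets thus had log2 changes of 0.62, 0.37, 0.10, 0.09 and −0.30 at 24 h for Amotl2, Ankrd1, Ccn1, Lats2 and Ccn2, and 1 of the 5 passed.

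Of the coactivators, Wwtr1 (TAZ) was lower with CBD at 6 h in all libraries without passing the threshold. It stood at 199, 203 and 222 CPM in vehicle and at 139 to 193 CPM (median 159) in the 12 CBD-treated libraries, and the groups did not overlap, as for Ccn2 and 1.42% of all genes. Its change was −0.35 (SE 0.10, fold 0.783, edgeR FDR = 0.16) over the 4 doses, and −0.50, −0.28, −0.40 and −0.23 from 0.325 to 3 µM. DESeq2 put it past the threshold over the doses (−0.36, FDR = 0.0906), as did a fit with the percentage of reads outside genes as covariate (−0.36, FDR = 0.0426). At 24 h its change was −0.17 (SE 0.11, FDR = 0.848), with 147 to 186 CPM in vehicle and 116 to 177 CPM with CBD. Yap1 stood at 73.4 to 98.8 CPM in vehicle and 62.1 to 112 CPM with CBD at 6 h, and at 72.9 to 117 CPM and 49.7 to 143 CPM at 24 h. Its change over the 4 doses was −0.04 (SE 0.15) at 6 h and 0.14 (SE 0.15) at 24 h, with neither past the threshold.

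Tead1, Lats1, Lats2 and Amotl1 had no call against vehicle at either time. Their changes over the 4 doses lay between −0.17 and 0.05 at 6 h and between −0.04 and 0.09 at 24 h. Lats1 was counted at 2.13 to 14.7 CPM (4 to 53 reads a library), so that its 95% interval ran from −0.80 to 0.62 at 6 h and from −0.60 to 0.52 at 24 h, and smaller changes were not detectable at this depth. Over the 10 members, 9 changes were below 0 at 6 h (median −0.09, against −0.02 for all genes tested) and 6 were above 0 at 24 h (median 0.08, against −0.01). At 24 h no member had all 12 CBD-treated libraries apart from the 3 vehicle libraries, as 0.586% of genes did.

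**Figure D3:**
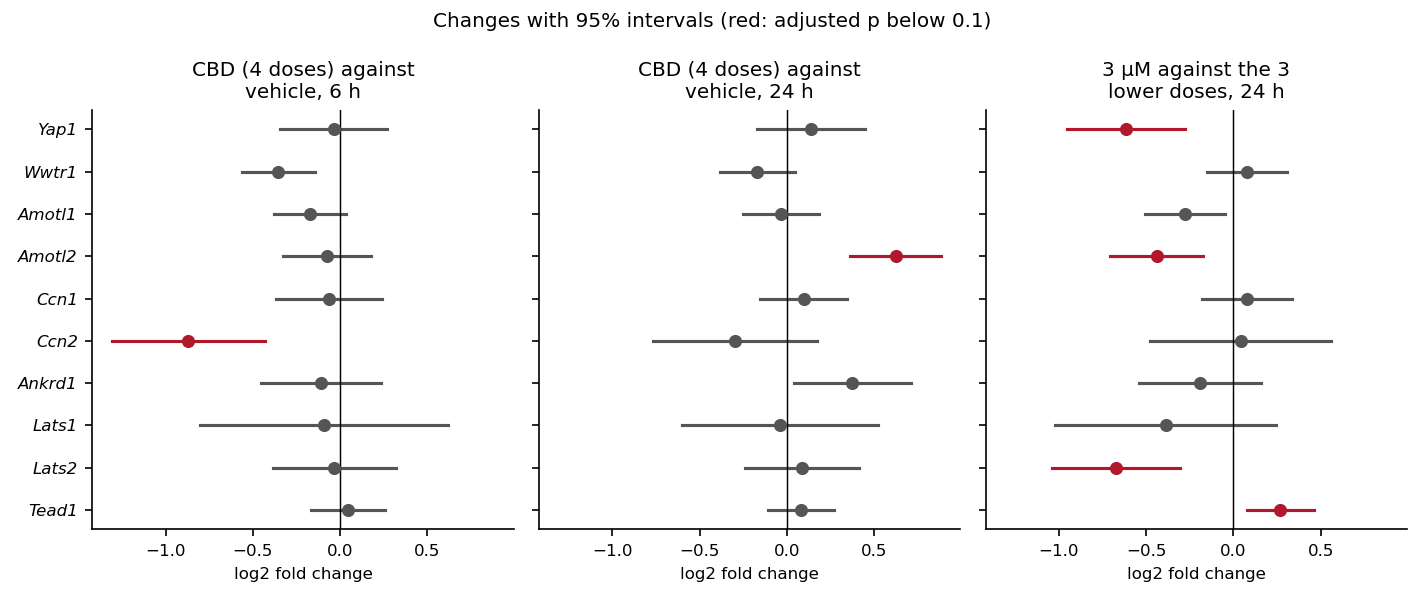
Log2 fold change (horizontal axis) with its 95% interval for each of the 10 genes in 3 contrasts, with calls at an adjusted p below 0.1 in red. Ccn2 at 6 h (−0.87), Amotl2 at 24 h (0.62), and Yap1, Amotl2, Lats2 and Tead1 between 3 µM and the lower doses at 24 h were called.

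The highest dose differed from the 3 lower doses at 24 h in 4 members, in a contrast already known from earlier work on these data to hold many genes (10.5% of 12118 passed). Yap1 stood at 49.7, 107 and 76.3 CPM at 3 µM and at 98.4 to 143 CPM (median 118) at the lower doses, with 1 library overlapping. Its change was −0.62 (SE 0.17, edgeR FDR = 0.0284). Lats2, the kinase that restrains YAP, stood at 46.5, 46.6 and 30.2 CPM at 3 µM, below all 9 libraries of the lower doses (49.5 to 91.9 CPM, median 61.7). Its change was −0.67 (SE 0.18, FDR = 0.0273). Amotl2 changed by −0.44 (SE 0.13, FDR = 0.0445), with A17 at 197 CPM inside the range of the lower doses. Tead1, the DNA-binding partner, went the other way. It stood at 118, 120 and 120 CPM at 3 µM and at 94.8 to 106 CPM (median 99.4) at the lower doses, a change of 0.27 (SE 0.09, FDR = 0.085).

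Amotl1 changed by −0.28 (SE 0.11, FDR = 0.142) and missed the threshold, and Lats1, Ankrd1, Ccn1, Ccn2 and Wwtr1 lay between −0.39 and 0.08. The 2 members whose 3 µM libraries were apart from the lower doses, Lats2 and Tead1, compare with 4.52% of all genes. The median change of the 10 members was −0.23, against 0.01 for all genes. Neither Yap1 (0.14) nor Lats2 (0.09) passed with CBD against vehicle over the 4 doses, and at 3 µM against vehicle the changes were −0.32 (SE 0.20, FDR = 0.633) and −0.42 (SE 0.21, FDR = 0.555). The test for any difference among the 4 doses at 24 h, passed by 1.93% of genes, had 0 members in edgeR, with 3 at an unadjusted p below 0.05, where 14.5% of all genes were (Lats2, FDR = 0.113; Yap1, FDR = 0.155; Amotl2, FDR = 0.208), and DESeq2 called 1. Without A17, A27 or A28 it had 3, 3 and 1 members. Without A17 the count of all genes passing this test also rose, from 234 to 1085.

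The calls between 3 µM and the lower doses depended on single libraries, that of Lats2 on A18 only. Without A16 the change of Yap1 was −0.38 (FDR = 0.292) and that of Amotl2 −0.29 (FDR = 0.369). Without A18 it was −0.61 for Yap1 (FDR = 0.11), −0.37 for Amotl2 (FDR = 0.2) and −0.51 for Lats2 (FDR = 0.175), and 0 members passed. Without A17 it grew to −0.93 for Yap1 and −0.71 for Amotl2, and Amotl1 passed at −0.43, while the count of all genes passing rose from 1275 to 2303. Tead1 missed the threshold without A16, A17, A18, A19, A21, A22, A23, A24, A25, A26 or A30, at 0.25 to 0.27 (FDR 0.109 to 0.317). With the percentage of reads outside genes added to the model, the changes of Yap1, Amotl2, Lats2 and Tead1 were −0.83, −0.46, −0.50 and 0.36, and none passed (FDR 0.293 to 0.564). At 6 h the same contrast and the test among doses called 0 members and 0% of genes in edgeR. Yap1 there had an unadjusted p of 0.027 (change 0.35, FDR = 0.905), as 1 of 10 members below 0.05 in the contrast and 0 in the test among doses (5.19% and 3.76% of all genes), and DESeq2 called 0 in both.

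**Figure D4:**
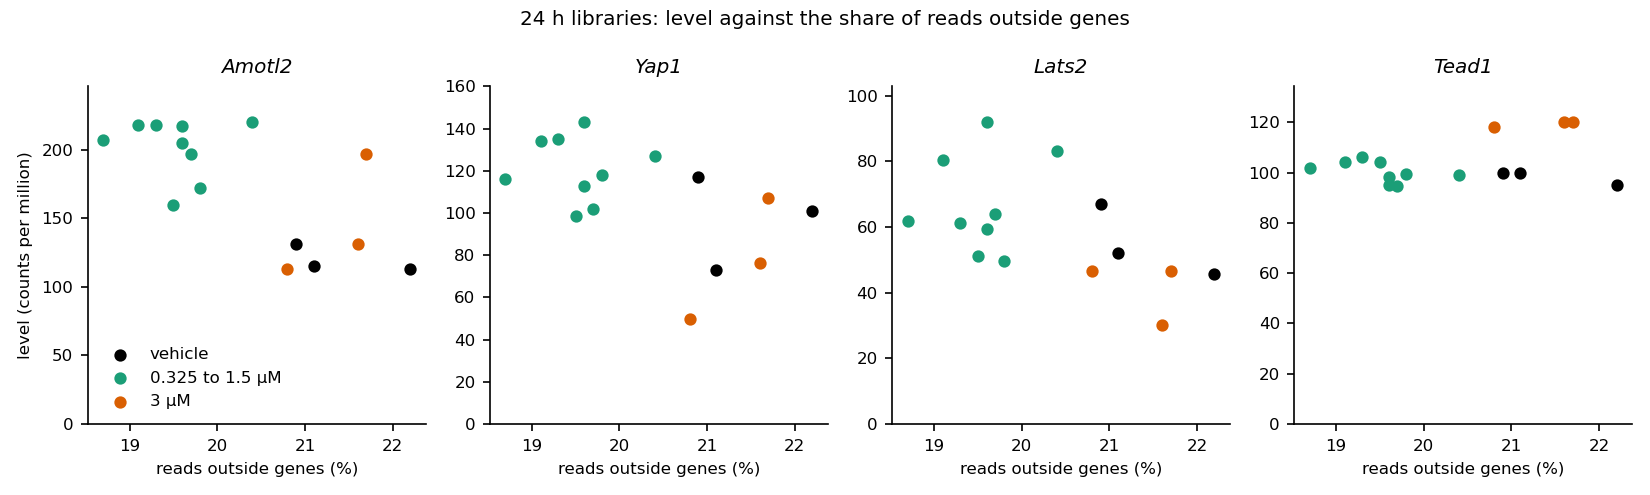
Level in CPM (vertical axis, from 0) against the percent of uniquely mapped reads outside genes (horizontal axis) in the 15 libraries of 24 h for Amotl2, Yap1, Lats2 and Tead1. The 9 libraries of 0.325 to 1.5 µM (green) lay at 18.7% to 20.4% and the vehicle (black) and 3 µM (orange) libraries at 20.8% to 22.2%, with no overlap.

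Between 24 h and 6 h, 3 of 10 members passed in vehicle and 6 of 10 with CBD, shares near the 26.7% and 53.6% of all genes that passed, and the time of treatment and the time in culture cannot be told apart. In vehicle, Ccn2 fell from 125, 112 and 206 CPM at 6 h to 33.1, 44.1 and 79.1 CPM at 24 h, a fold of 0.346 (log2 fold change −1.53, SE 0.32, edgeR FDR = 0.000809). Tead1 fell from 128, 143 and 124 CPM to 100, 100 and 94.9 CPM (−0.41, SE 0.11, FDR = 0.00807). Wwtr1 fell from 199 to 222 CPM to 147 to 186 CPM (−0.31, SE 0.13, FDR = 0.0928). These 3 members were the ones called and the ones whose vehicle groups did not overlap, as 31.8% of all genes did not. The calls of Ccn2 and Tead1 stood without any 1 of the 30 libraries (−1.95 to −1.19 and −0.44 to −0.34). That of Wwtr1 stood only without A16 or A28, and was lost without each of the other 28 libraries (−0.38 to −0.21 over all 30).

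In the 12 CBD-treated libraries of each time, the 6 members that passed went in both directions. Ccn2 was again lower (−0.95, SE 0.17, FDR = 1.26e-05), as were Tead1 (−0.38, SE 0.06, FDR = 1.02e-06) and Ccn1 (−0.18, SE 0.09, FDR = 0.089). Amotl2 was higher (0.57, SE 0.08, FDR = 3.48e-07), from 103 to 140 CPM at 6 h to 113 to 220 CPM at 24 h. Yap1 (0.33, SE 0.10, FDR = 0.00691) and Amotl1 (0.20, SE 0.07, FDR = 0.011) were also higher. In vehicle Amotl2 had changed by −0.14 (SE 0.16, FDR = 0.593), Yap1 by 0.15 (SE 0.20) and Amotl1 by 0.06 (SE 0.13). The interaction, which tests the difference between CBD and vehicle, was 0.71 (edgeR FDR = 0.126) for Amotl2. It was 0.19 (SE 0.23, edgeR FDR = 0.942) for Yap1 and 0.14 (SE 0.15, edgeR FDR = 0.933) for Amotl1. No member had all 12 libraries of 24 h apart from all 12 of 6 h, as 3.1% of genes did. Of these calls, that of Ccn1 stood only without A8, A11, A14, A20 or A25 (−0.23 to −0.13 over the 30 libraries left out), and the other 5 stood without any 1 library. Wwtr1 passed without A18 (−0.14, FDR = 0.0914). All 10 members had an interaction above 0, from 0.04 for Tead1 to 0.71 for Amotl2, with a median of 0.17 against 0.02 for all genes, and 0 passed. The vehicle library A3, high in 8 members, is part of that contrast, and its part in these signs was not tested.

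Across the 30 libraries, with the mean of each time subtracted, the members that moved most alike were Yap1 and Lats2 (Pearson r = 0.70), Yap1 and Amotl2 (r = 0.66), Yap1 and Amotl1 (r = 0.58) and Amotl2 and Lats2 (r = 0.57). These points share library depth and dose, and the values are a description. The 5 genes whose log2 CPM followed Amotl2 most closely were Fnta (r = 0.84), Sertad2 (r = 0.84), Ss18 (r = 0.81), Ube2r2 (r = 0.80) and Cdkn1b (r = 0.80). Within 24 h these correlations were 0.89 to 0.93 and within 6 h 0.36 to 0.58. For Ccn2 the closest were Sdhd (r = 0.82), mt-Te (r = 0.78), Snhg8, Slc20a2 and Srebf1 (r = 0.77, 0.77 and 0.76). For Ccn1 the closest were Zkscan1 (r = 0.66), Pygo1, Ppp1ca, Tmem62 and Vnn1 (r = 0.58 to 0.60). With Spearman's rho in place of Pearson's r, 3, 2 and 2 of the 5 genes were among the top 5 for Amotl2, Ccn2 and Ccn1.

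Other genes were taken from 3 lists, of Hippo regulators with TEAD factors, of YAP/TAZ targets and of serum response factor targets. None of them passed with CBD over the 4 doses. Of 30 further regulators and TEAD factors, 0 passed at 6 h and 0 at 24 h in edgeR and in DESeq2, with 3 and 2 at an unadjusted p below 0.05 (10.3% and 6.73% of all genes). Those of smallest p were Taok2, an upstream kinase (0.35, SE 0.12, FDR = 0.242), and Tead2 (−0.43, SE 0.17, FDR = 0.35) at 6 h, and Tead3 (−0.35, SE 0.13, FDR = 0.604) and the kinase Stk38l (0.38, SE 0.17, FDR = 0.726) at 24 h. The median change of the list was −0.05 at 6 h and −0.01 at 24 h, against −0.02 and −0.01 for all genes. Without A3, 1 regulator passed at 6 h.

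The other 17 genes of a YAP/TAZ signature of 22 genes also gave 0 calls in edgeR and DESeq2 at both times, with 7 of 17 at 6 h and 1 of 15 tested at 24 h at an unadjusted p below 0.05, where 10.3% and 6.73% of all genes were. At 6 h the stress gene Gadd45a (−1.05, SE 0.31, FDR = 0.167) and F3, tissue factor (−1.01, SE 0.37, FDR = 0.296), had the smallest p. Both values were below 0, as for Ccn2, while 11 of the 17 changes were above 0, with a median of 0.08 (−0.02 for all genes). At 24 h the smallest p were those of Tgfb2 (0.36, SE 0.17, FDR = 0.738) and Arhgef17 (0.15, SE 0.10, FDR = 0.865), and the median was −0.02 against −0.01 for all genes. Without A8 or A13, 1 gene of this list passed at 6 h. Targets of serum response factor, a second sensor of actin and cell shape, also had 0 calls among 12 tested at 6 h and at 24 h in both tools, with 3 and 0 at an unadjusted p below 0.05. Acta2 (0.38, SE 0.13, FDR = 0.248) and Flna (0.27, SE 0.10, FDR = 0.348) led at 6 h, and Vcl (−0.32, SE 0.18, FDR = 0.819) and Acta2 (0.21, SE 0.13, FDR = 0.847) at 24 h. The list medians were 0.18 and 0.06.

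Between 3 µM and the lower doses at 24 h, 3 of 30, 2 of 15 and 2 of 12 genes of the lists passed, the latter pair being 13.3% and 16.7%, beside 10.5% of all genes. Of the 30 regulators, Stk4 (the MST1 kinase, 0.39, SE 0.12, FDR = 0.049) and Tead2 (0.45, SE 0.16, FDR = 0.0945) were higher, and Wtip (−0.49, SE 0.18, FDR = 0.0985) was lower. This count of 3 became 0 without A16 or A18, 8 without A17 and 1 without A20, A22, A24, A25 or A30. Without A17 the count of all genes passing in this contrast also rose, from 1275 to 2303. Of 15 other YAP/TAZ targets, Rbms3 was lower (−0.42, SE 0.12, FDR = 0.0406) and the receptor kinase Axl higher (0.29, SE 0.10, FDR = 0.0916). That count of 2 became 0 without A16 or A18, 4 without A17 and 1 without A19, A21, A22, A23, A24, A25, A26, A28 or A30. Of 12 serum response factor targets, Fhl1 (−0.46, SE 0.14, FDR = 0.0427) and Fhl2 (−0.38, SE 0.11, FDR = 0.0472), both LIM domain proteins, were lower, and neither passed without A16 or A18. At 6 h this contrast called 0 in each list in edgeR and in DESeq2, with 3, 0 and 2 at an unadjusted p below 0.05 (5.19% of all genes). The smallest p were those of Ajuba (0.36, FDR = 0.905) and Tead4 (−0.79, FDR = 0.905) among regulators, Asap1 (−0.18, FDR = 0.905) and F3 (0.68, FDR = 0.905) among targets, and Acta2 (0.37, FDR = 0.905) and Tpm1 (−0.32, FDR = 0.905).

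With time in vehicle, 7 of 30 regulators passed (23.3%), beside 26.7% of all genes. Tead3 (0.78, SE 0.21, FDR = 0.00785), Amot (0.81, SE 0.24, FDR = 0.0142), the cadherin Fat1 (0.63), Wtip (0.62), Taok2 (0.37) and the TEAD cofactor Vgll3 (0.48) were higher at 24 h, and the LATS cofactor Mob1a (−0.45) was lower. The count was 4 without A2 and 2 without A28. Of 17 other YAP/TAZ targets 7 passed (41.2%). Ccdc80 (1.04, SE 0.14, FDR = 3.41e-06), Rbms3 (1.31, SE 0.19, FDR = 1.08e-05) and Foxf2 (0.98) were higher, while Igfbp3 (−3.07, SE 0.98, FDR = 0.0218), Dock5 (−0.60), F3 (−1.50) and Axl (−0.31) were lower, and 4 passed without A28. Igfbp3 was near the floor, at 1.11 to 3.73 CPM in vehicle at 6 h and 0.233 to 0.337 CPM at 24 h, and was filtered out of the 24 h fit. F3 was also low, at 4.45 to 20.3 CPM and 1.66 to 7.41 CPM. Of 12 serum response factor targets 5 passed (41.7%), with Fhl2 (0.78), Myl9 (0.60) and Vcl (0.62) higher and Tagln (−0.91) and Actg2 (−0.62) lower. Without A1, A2, A3, A29 or A30, 3 passed. The targets of each list thus moved in both directions.

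In the CBD-treated libraries 16 of 30 regulators, 13 of 17 YAP/TAZ targets and 11 of 12 serum response factor targets passed between the times. These are 53.3%, 76.5% and 91.7%, beside 53.6% of all genes. Among regulators 10 were higher and 6 lower, led by Amot (0.91, SE 0.12, FDR = 5.55e-08), Stk3 (the MST2 kinase, 0.65), Stk38l (0.58) and Mob1a (−0.42). Vgll3 (0.48), Fat1 (0.54), Tead3 (0.48) and the cadherin Dchs1 (−0.96) followed. Among the other targets, Ccdc80 (0.86), Rbms3 (1.03), Tgfb2 (1.51, SE 0.14, FDR = 4.81e-11) and Foxf2 (0.86) were higher, and Axl (−0.39), Igfbp3 (−2.48), Myof (−0.27) and Crim1 (−0.28) were lower. Igfbp3 was again near the floor, at 0.874 to 5.67 CPM at 6 h and 0 to 2.52 CPM at 24 h. Among serum response factor targets, Fhl2 (1.08, SE 0.10, FDR = 7.66e-11) and Vcl (0.73) were higher, and Tagln (−1.22), Actg2 (−0.74), Tpm2 (−0.28), Tpm1 (−0.31), Acta2 (−0.35) and Cnn1 (−0.45) were lower. No gene of the 3 lists passed for the difference of the CBD change between the times in edgeR or DESeq2, with 2, 2 and 0 at an unadjusted p below 0.05 (6.52% of all genes). The smallest p were those of Taok2 (−0.41, FDR = 0.675) and Tead2 (0.51, FDR = 0.735), of Tgfb2 (0.92, FDR = 0.378) and Gadd45a (1.07, FDR = 0.541), and of Flna (−0.22, FDR = 0.808) and Fhl2 (0.30, FDR = 0.876).

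**Figure D5:**
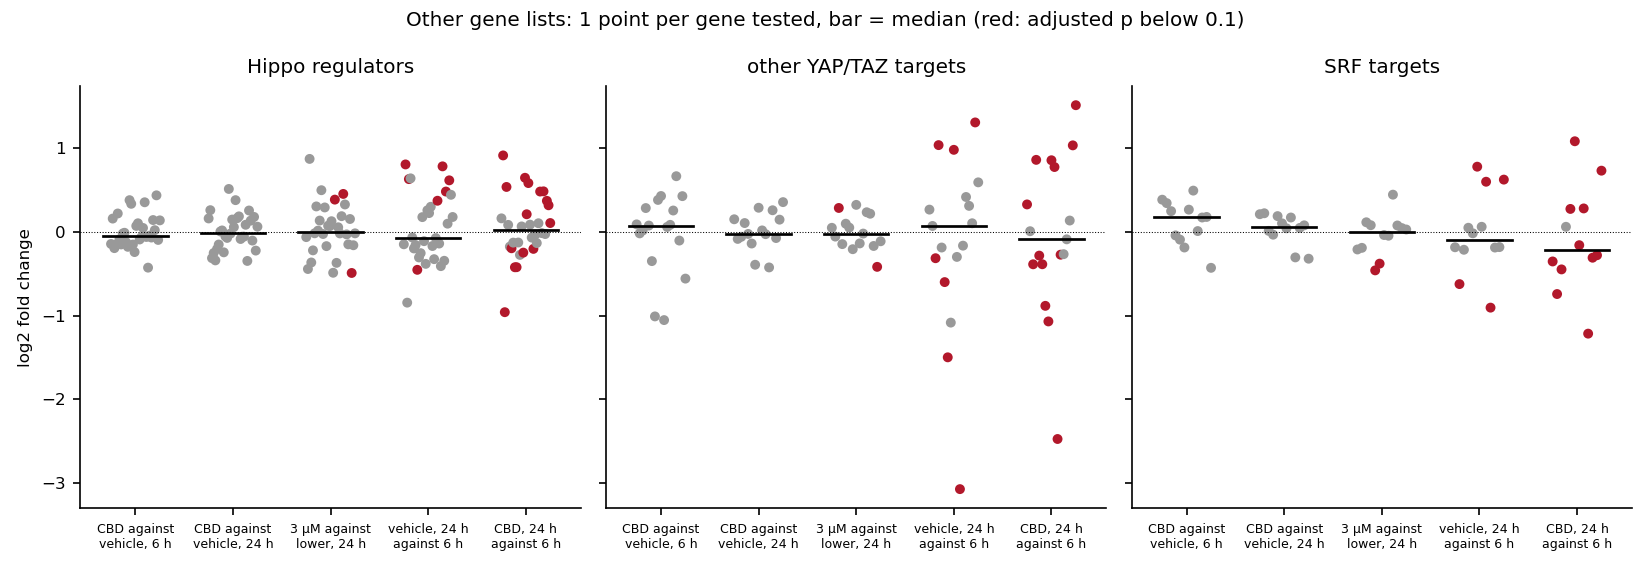
Log2 fold change (vertical axis) of each gene of the 3 other lists (1 point per gene, bar at the median) in 5 contrasts, with calls at an adjusted p below 0.1 in red. No gene was called with CBD over the 4 doses at 6 h or 24 h. Between the times in vehicle, 7 of 30, 7 of 17 and 5 of 12 genes were called, beside 26.7% of all genes.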

How the data were processed

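The deposited values are raw read counts per Ensembl gene, which the authors made from 3′ mRNA-Seq reads by trimming with Flexbar, mapping to GRCm39 with STAR 2.7.5c and counting with HTSeq 1.99.2. Reads outside genes are a summary line of each table (17.7% to 22.2% of uniquely mapped reads) and were kept out of library sizes. Groups followed the labels. In R 4.3.3 with edgeR 4.0.16, each time was fitted as 15 libraries with 1 mean per group (filterByExpr, TMM, quasi-likelihood F-test), and contrasts between times used all 30 libraries. The Benjamini-Hochberg adjustment covered all 12012 (6 h), 12118 (24 h) or 12790 (both) genes tested, and FDR means the adjusted p, with a threshold of 0.1. The standard error is the change divided by the square root of F. The shares of all genes that passed are those of the edgeR fits as reported. Counts by DESeq2 or with a library left out have no share of their own, except where a count of all genes is given. The steps were tested on simulated data. Alternatives were DESeq2 1.42.0, RLE scaling, other filters, other sets of libraries, a covariate for reads outside genes, the mitochondrial genes left out, and each library left out in turn.

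The members and lists were chosen with earlier results of these data known. The genes named are all members, the called genes of each list (at most 8 by smallest p, or 2 where none passed) and 5 genes most like Amotl2, Ccn1 and Ccn2. No pair of libraries of a group agreed within sampling noise (chi-square per gene 2.13 to 10.7 over 30 pairs). Depth limits the precision of genes of few reads, such as Lats1, Igfbp3, F3, Gadd45a and Dchs1. Symbols and gene overlaps came from GENCODE M21, whose assembly (GRCm38) precedes the one used for mapping.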

Additional observations from a re-analysis of the deposited data

How the results depend on the processing

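The members' changes were recomputed under each alternative, which gave 3831 values. Of 492 values of changes that had passed the threshold, 388 kept both sign and threshold, 104 missed the threshold and 0 changed sign. Of the 3339 others, 36 passed and 136 changed sign without passing in either fit.

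The number of members called was 0 or 1 at each dose. At 0.325 µM and 6 h it was 1 with no filter on low counts (Ccn2) and 1 with all 30 libraries in 1 fit or with DESeq2 (Wwtr1). It was 2 with the percentage of reads outside genes as covariate (Ccn2 and Wwtr1). At 0.75, 1.5 and 3 µM of 6 h it was 1 with no filter. Over the 4 doses at 6 h it was 2 with the covariate, which also gave 1, 1 and 3 calls in the regulators, YAP/TAZ targets and serum response factor targets, and the latter pair had 1 and 2 with no filter, and the targets 1 with all 30 libraries. At 24 h it was 1 at 0.325 µM with RLE scaling, no filter, at least 10 reads in every library, DESeq2 or only the groups compared, and 1 at 0.75 µM with no filter, DESeq2 or only the groups compared. With the covariate it was 0 at 1.5 µM, 0 over the 4 doses and 0 for 3 µM against the lower doses, as it was for the 3 lists. Among doses at 24 h it was 3 with no filter and 1 with DESeq2. With all 30 libraries in 1 fit, the lists had 1, 1 and 0 calls for 3 µM against the lower doses. Between the times in vehicle, members had 1 call with no filter, regulators 3 with only the groups compared, targets 4 with at least 10 reads and serum response factor targets 2 with the covariate. In CBD-treated libraries the targets had 8 with at least 10 reads. The interaction had 1 member with no filter and with DESeq2. The cause was not tested in any of these.

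Leaving out each library gave 0 to 1 members at 0.325 µM (6 h), over the 4 doses (6 h and 24 h), at 0.325, 0.75 and 1.5 µM (24 h) and for the interaction, 0 to 3 among doses at 24 h and 0 to 4 for 3 µM against the lower doses. For the regulators, YAP/TAZ targets and serum response factor targets it gave 0 to 8, 0 to 4 and 0 to 2 in that last contrast, and 2 to 7, 4 to 8 and 3 to 5 between the times in vehicle, while the regulators and the targets had 0 to 1 over the 4 doses at 6 h. Over all alternatives, the number of all genes called for the 4 doses against vehicle ranged from 51 (without A2) to 329 (with the covariate) at 6 h, with 90 as reported. At 24 h the covariate gave the lowest count and leaving out A16 or A17 the highest, from 0 to 47 (A16) for the 4 doses against vehicle (13 as reported), from 30 to 2303 (A17) for 3 µM against the lower doses (1275) and from 1 to 1085 (A17) among doses (234). From 0.325 to 3 µM against vehicle it ranged at 6 h from 0 to 322, 1 to 173, 0 to 154 and 0 to 135 (24, 9, 12 and 6 as reported), with 173 and 135 without A3. At 24 h it ranged from 0 to 79, 0 to 102, 0 to 44 and 1 to 288 (8, 10, 5 and 1), with 288 without A17. For the interaction it ranged from 2 (without A29) to 87 (30). RLE scaling moved the median change of all genes by at most 0.01. No paired analysis was possible because no label numbers the replicates or ties a library of one group to a library of another.

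Limits are those of 3 libraries a group, of vehicle libraries shared by the 4 doses, and of a share of reads outside genes that moved with the dose groups at 24 h.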
